A study of Mus musculus with 6 samples.

Results

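Fos, Fosb, Fosl2, Jun, Junb, Jund, Atf3, Dusp1, Ier2 and Ier3 are immediate early genes, and they were followed here in testes of 4-day-old mice with and without Foxo1. They were chosen by name, as all probes whose platform gene symbol was one of these 10, and 13 of the 45281 probes of the Illumina bead array carried such a symbol. Of the 13, 7 probes of 7 genes (Fos, Fosl2, Jun, Junb, Jund, Dusp1 and Ier3) passed the filter for testing, which asked for a detection p-value under 0.05 on at least 3 of 6 arrays. The detection p-value gives how often a negative control bead type was as bright as the probe or brighter. The remaining 6 probes, among them every probe of Fosb, Atf3 and Ier2, lay at or near background.

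The study measured total RNA of whole testis at postnatal day 4 from FVB mice: 3 samples carry the label Foxo1 null and 3 the label wild type, and 1 slide held all 6. The labels name no Cre line, deleted exon or treatment, do not say in which cells the gene was lost, and do not say whether a sample was 1 animal, so the p-values measure the spread between these samples. Foxo1 encodes a forkhead transcription factor kept out of the nucleus by PI3K-AKT signalling. Its own 2 tested probes moved in opposite directions, by -1.81 and 3.36 on the log2 scale (limma adjusted p = 0.0273 and 0.00221), and where each lies in the gene was not analysed here.

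Immediate early genes are transcribed within minutes of a stimulus without new protein synthesis, through serum response factor, CREB and related factors that wait on their promoters. Growth factors acting through ERK induce them, and so do stress kinases activated by cold, anoxia, dissociation or slow dissection, which is why they serve as a gauge of tissue handling. FOS and JUN proteins pair through leucine zippers into AP-1, which binds DNA as a dimer, while phosphatases such as DUSP1 switch the upstream kinases off again. In spermatogonial stem cells, GDNF acting on the receptor RET is a known growth factor input to this class of genes.

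No tested probe of these genes passed the test for a difference between null and wild-type testes. Of 7 tested probes 0 passed an adjusted p of 0.05 (limma, Benjamini-Hochberg over all 20597 tested probes), 0 had an unadjusted p under 0.05, and at 0 of them the arrays of the groups failed to overlap. Over all tested probes 0.136% were called, 8.79% had an unadjusted p under 0.05 and 14% had groups that did not overlap, so counts of 0 among 7 lie near the background and say little by themselves. The size of the differences is the more informative value: the median over the 7 probes was 0.04 on the log2 scale, null minus wild type, against 0.007 over all tested probes. The 95% intervals of the 7 probes reached at most 1.74-fold higher in null, for Junb, and 1.70-fold lower, for Fos.

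Fos, the founding FOS family subunit of AP-1 and the member most often used as a sign of recent stimulation, was detected on all 6 arrays. Its unnormalized scanner signals were 161, 225 and 199 on wild-type replicates 1, 2 and 3, and 156, 229 and 258 on null replicates 1, 2 and 3. After background correction and quantile normalization the log2 intensities were 6.30, 7.15 and 6.62 in wild type and 5.97, 7.03 and 6.96 in null. The groups overlapped: the highest value was that of wild-type replicate 2 and the lowest that of null replicate 1. The difference was -0.04 (SE 0.32, 95% interval -0.77 to 0.69, n = 3 per group, limma adjusted p = 0.991).

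Fosl2, which encodes the FOS family protein FRA2, had 1 detected probe and 2 that were detected on no array. At the detected probe, ILMN_1252481, the normalized log2 intensities were 9.32, 9.46 and 8.88 on wild-type replicates 1 to 3 and 9.30, 9.34 and 9.56 on null replicates 1 to 3. Wild-type replicate 3 lay below the other 5 arrays, which spanned only 9.30 to 9.56. The difference was 0.18 (SE 0.19, 95% interval -0.24 to 0.61, n = 3 per group, limma adjusted p = 0.870). Fosb, a FOS family member induced together with Fos, had scanner signals from 117 to 130 and was detected on 1 array of each group, both replicate 1.

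Jun, the subunit that pairs with FOS proteins in the classical AP-1 dimer, gave a difference of 0.00 between group means. Its normalized log2 intensities were 8.47, 8.41 and 8.28 in wild type and 7.96, 8.68 and 8.52 in null. The null arrays lay on both sides of the wild-type arrays, with replicate 1 below and replicates 2 and 3 above all of them. The 95% interval ran from -0.46 to 0.46 (SE 0.20, n = 3 per group, limma adjusted p = 1.0), that is, up to 1.38-fold either way.

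Junb, a JUN family member that can restrain JUN at many promoters, was detected on all arrays at probe ILMN_1220034. The normalized log2 intensities were 6.64, 6.48 and 5.73 in wild type and 5.66, 6.74 and 6.59 in null. Each group thus held 1 low array, wild-type replicate 3 and null replicate 1, and the other 4 arrays lay within 6.48 to 6.74. The difference was 0.04 (SE 0.33, 95% interval -0.71 to 0.80, n = 3 per group, limma adjusted p = 0.989).

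Jund, the JUN family member that is expressed steadily in many resting tissues and is least inducible, ordered the null arrays differently. Its normalized log2 intensities were 7.20, 7.06 and 7.04 in wild type, a range of little width, and 7.78, 7.33 and 6.74 in null. Null replicate 1, the lowest of the 6 arrays for Fos, Jun and Junb, was the highest of the 6 arrays for Jund, and null replicate 3 was the lowest. The difference was 0.18 (SE 0.25, 95% interval -0.38 to 0.75, n = 3 per group, limma adjusted p = 0.913). Without null replicate 1 it was -0.06, and without null replicate 3 it was 0.46 (unadjusted p = 0.0506, limma adjusted p = 0.785).

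Atf3, a stress-induced bZIP factor that pairs with JUN proteins, had scanner signals from 104 to 152. It was detected on wild-type replicate 2 and null replicate 3, 1 array of each group, and was not tested.

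Dusp1, the phosphatase that dephosphorylates ERK, JNK and p38 kinases, had normalized log2 intensities of 9.71, 9.79 and 9.61 in wild type and 9.14, 9.59 and 9.75 in null. Null replicate 1 lay below all other arrays, while the remaining null arrays lay within or just below the wild-type range. The difference was -0.21 (SE 0.18, 95% interval -0.63 to 0.21, n = 3 per group, limma adjusted p = 0.841), the largest of the 7 in size. Without null replicate 1 it was -0.03.

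Ier3, an early response protein that modulates ERK signalling and cell survival, had normalized log2 intensities of 8.22, 8.57 and 8.71 in wild type and 8.15, 8.82 and 8.82 in null. The groups overlapped through null replicate 1, the lowest array, and the difference was 0.10 (SE 0.23, 95% interval -0.42 to 0.62, n = 3 per group, limma adjusted p = 0.961). Ier2, a nuclear protein among the most rapidly induced genes of cultured cells, was detected on 0 of 6 arrays, with scanner signals from 104 to 132.

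**Figure D1:**
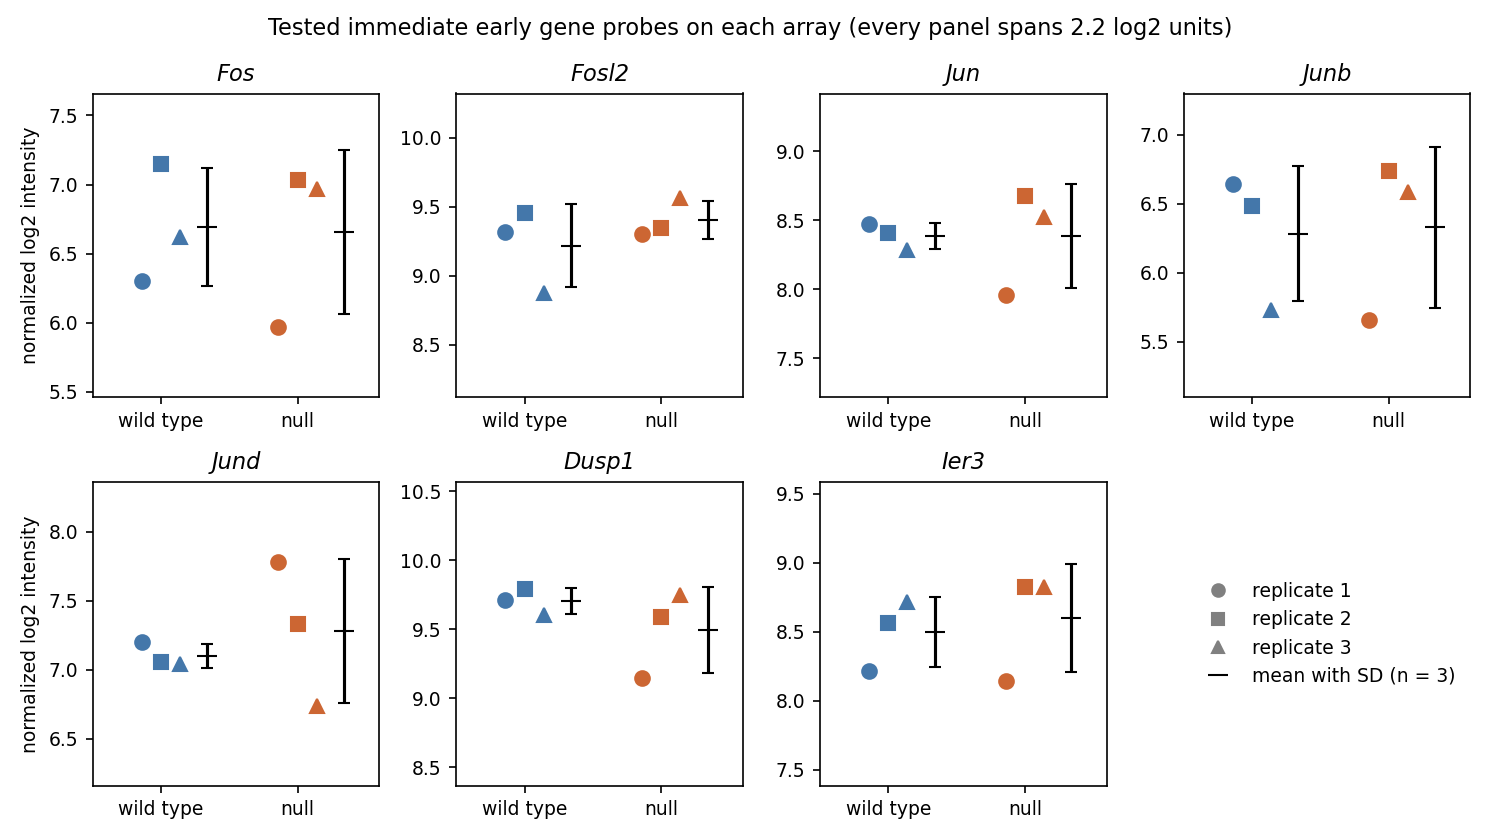
Normalized log2 intensity (y axis) of the 7 tested probes on each array, by group (x axis), with replicates as separate symbols and the group mean with its SD (n = 3) as a bar. The groups overlap in every panel, and null replicate 1 is the lowest null array in all panels except that of Jund, where it is the highest.

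The probes detected on no array were ILMN_1254833 of Junb, ILMN_2768924 and ILMN_2718801 of Fosl2, and ILMN_2642705 of Ier2. At 2 of them the groups did not overlap, in opposite directions. Groups did not overlap at 14% of all tested probes, and the share among undetected probes was not computed. The second Junb probe, ILMN_1254833, had normalized log2 values of 4.50, 4.49 and 4.39 in wild type and 4.97, 5.01 and 4.87 in null, although its detection p-value was 0.05 or more on every array and the detected Junb probe had a difference of 0.04. At the Fosl2 probe ILMN_2718801 all null values were under all wild-type values (4.43 to 4.56 against 4.66 to 4.80). Neither was called detected on any array (detection p-values of 0.077 to 0.109 in null for the Junb probe), so no fold is given. In a fit without the detection filter neither passed (limma adjusted p = 0.359 for Junb and 0.748 for Fosl2, with an unadjusted p = 0.00214 and 0.0723).

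The second measure of interest was the spread between arrays of the same group, read here as a check on handling. The pooled within-group SD of the log2 intensity was 0.33 at the median of the 7 probes against 0.23 over all tested probes, and at 7 of 7 it lay above that overall median. Fos (SD 0.52) and Junb (SD 0.54) were more variable than 95.8% and 96.7% of all tested probes, whereas Dusp1 (0.23) and Fosl2 (0.24) lay at the 51.5th and 52.6th percentiles. Between them were Jun (0.28), Ier3 (0.33) and Jund (0.37). The most variable of the 7 were also the dimmest, since Fos and Junb exceeded 37.2% and 30.8% of all tested probes in mean level. Dusp1 and Fosl2 were the brightest, at 78.5% and 75.1%. The SDs were not compared with those of probes of like level. The contrast among the 7 depended on the background correction. Without it their SDs lay close together, from 0.20 (Fosl2) to 0.26 (Ier3), with Fos at 0.25 and Junb at 0.23, and exceeded those of 83.0% to 93.2% of all tested probes. On that scale the SD was a median of 3.18 times the standard error over beads of the same probe, against 1.88 times over all tested probes.

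**Figure D2:**
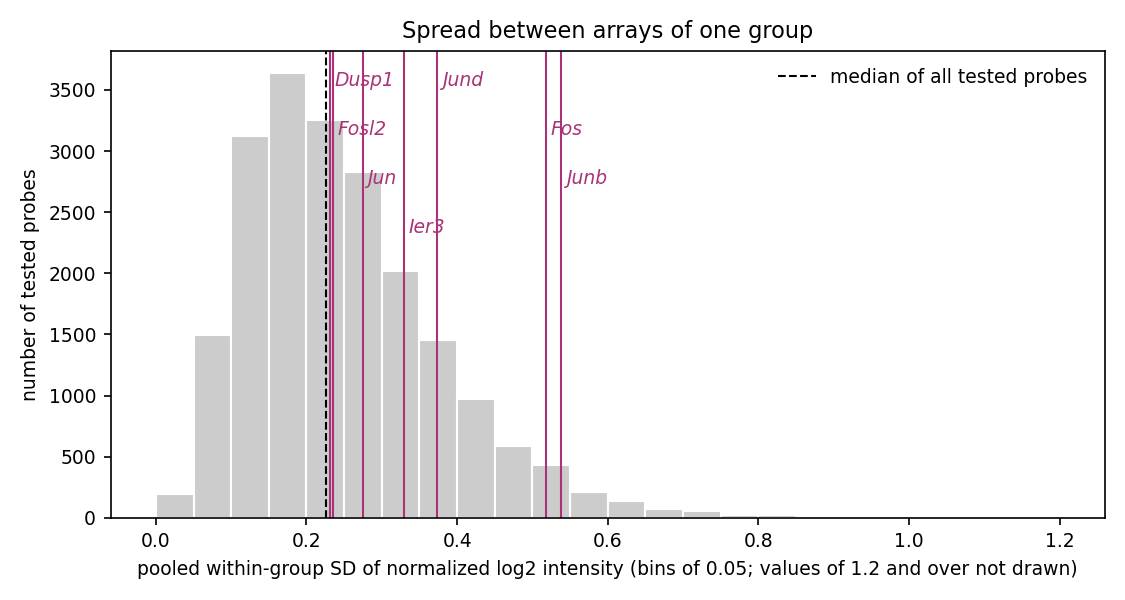
Number of tested probes (y axis) by pooled within-group SD of the normalized log2 intensity (x axis), as grey bars, with the 7 probes as vertical lines and the median of all tested probes dashed. All 7 lines lie to the right of the dashed line at 0.23, with Fos at 0.52 and Junb at 0.54 in the upper tail.

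Much of this spread lay among the null arrays, where replicate 1 stood apart. The SD was larger in null than in wild type for 6 of the 7 probes, all but Fosl2, while over all tested probes this held for 50.7%. Null replicate 1 was the lowest of its group at 6 of the 7 probes and the highest at the other, with a median deviation of -0.43 from the null mean, and over all tested probes it was the lowest null array at 33.9%. Its deviations were -0.69 for Fos, -0.67 for Junb, -0.45 for Ier3, -0.43 for Jun, -0.35 for Dusp1, -0.10 for Fosl2 and 0.50 for Jund. With null replicate 1 left out and the arrays normalized anew, the median pooled SD was 0.24 for these probes against 0.21 for all. That array was singled out for its deviation at these same probes. The smaller SD and the shifted differences that follow are therefore built into the choice and are only a description. The median difference between groups was then 0.24, against 0.04 with all arrays, with 0 probes called by limma. The single differences without it were 0.38 for Junb, 0.32 for Ier3, 0.30 for Fos, 0.24 for Fosl2 and 0.21 for Jun (limma adjusted p from 0.585 to 0.749), next to those of Jund and Dusp1 given above.

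**Figure D3:**
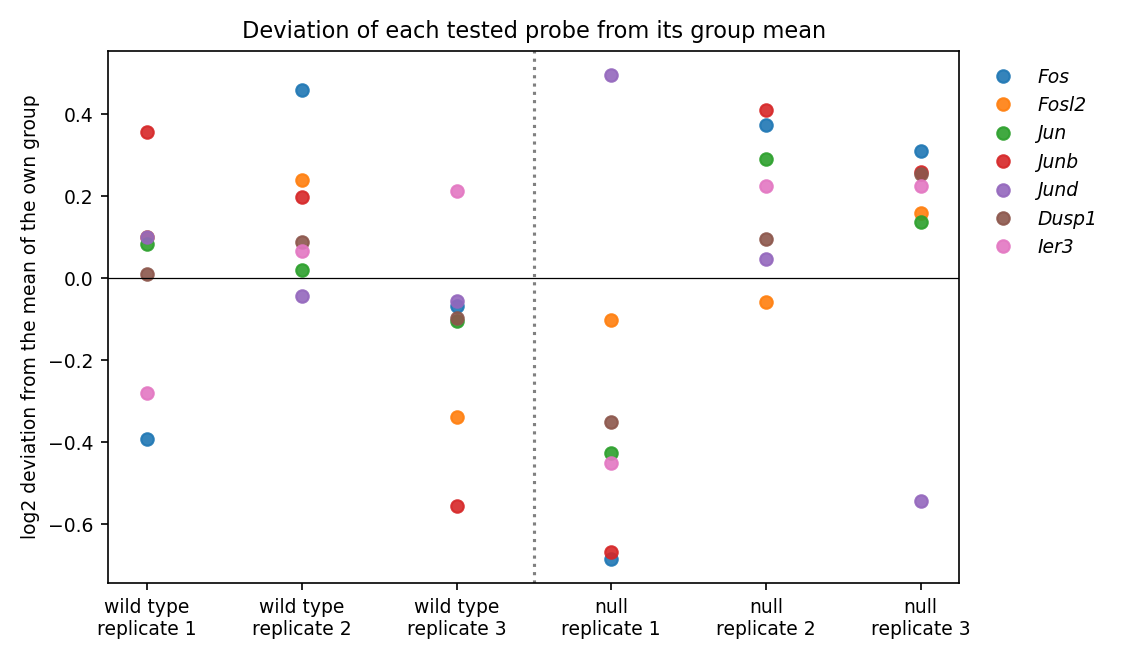
Deviation of the normalized log2 intensity from the mean of the own group (y axis) for the 7 tested probes on each array (x axis, wild type left of the dotted line, null right). On null replicate 1 the points of 6 genes lie below 0 and that of Jund lies at 0.50, while on null replicates 2 and 3 most points lie above 0.

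In wild type the array with the most low values was replicate 3, lowest of its group at 5 of the 7 probes but highest for Ier3. Fos and Junb did not share their low array there: Fos was lowest on replicate 1 and Junb on replicate 3. Across the 6 arrays the Pearson correlation with Fos was 0.84 for Ier3, 0.75 for Jun, 0.75 for Dusp1, 0.61 for Junb, 0.33 for Fosl2 and -0.69 for Jund. These values describe 6 arrays that share their group structure and normalization. Of 11144 other tested genes the 3 that followed Fos most closely over the 6 arrays were Tnfaip8l2, Stum and Washc3 (Pearson correlation 0.992, 0.992 and 0.985). Genes picked this way share the small group difference of Fos (-0.04), so a test between the groups adds nothing for them. How high the top correlation of so many genes over 6 arrays would be without any link was not computed.

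Promoter stretches are printed where the windows hold letters known to bind CREB or forkhead factors, the latter since FOXO1 is the factor removed. Among the tested genes, Fos, Junb and Dusp1 had CREB letters in their windows and were low on null replicate 1. The windows of Jun, Ier3 and Fosl2, also low there, held none of the motifs searched, nor did that of Jund, which was high there. Fosb and Atf3 were not tested. A link between these letters and the array values was not tested. Promoter windows of 300 bases, 250 before and 50 after the gene start (RefSeq, GRCm38.p6), were matched for 9 of the 10 genes, all but Ier2. Stretches of the windows of Fos (chr12:85473760-85473869, plus strand), Fosb (chr7:19310077-19310136, minus strand), Junb (chr8:84978834-84978893, minus strand), Atf3 (chr1:191183335-191183394, minus strand) and Dusp1 (chr17:26508598-26508672, minus strand) read 5′ to 3′ along the gene as follows. Capitals mark the core of the cyclic AMP response element (TGACG, its other strand CGTCA in Atf3, or TGACGTCA in full), the TATA motif of Fos (TATAAA) and the forkhead motif of Junb (TGTTTAC).
Fos: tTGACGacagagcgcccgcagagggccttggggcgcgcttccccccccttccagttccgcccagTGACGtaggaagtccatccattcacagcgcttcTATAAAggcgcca
Fosb: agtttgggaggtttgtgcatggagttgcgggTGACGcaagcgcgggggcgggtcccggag
Junb: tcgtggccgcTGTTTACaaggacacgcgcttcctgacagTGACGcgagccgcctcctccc
Atf3: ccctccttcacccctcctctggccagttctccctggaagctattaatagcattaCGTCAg
Dusp1: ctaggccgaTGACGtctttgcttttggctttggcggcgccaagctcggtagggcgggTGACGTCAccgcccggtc

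Searched on both strands, TGACG was in the windows of 5 of the 9 genes (Fos, Fosb, Junb, Atf3 and Dusp1), against 20.8% of 32851 promoter windows of the same length. The full element TGACGTCA, which contains TGACG on each strand, was in that of Dusp1 alone among the 9, against 1.79%. The forkhead motif GTAAACA, read on the other strand as TGTTTAC, was in that of Junb alone, against 3.65%. TATAAA was in the windows of Fos and Junb, against 13.6%. The Fos match lay at window bases 218 to 223. That of Junb lay at bases 251 to 256, past the 250 bases before the gene start. The AP-1 motif TGANTCA (7.81% of all windows) and the CArG box of serum response factor (1.63%) matched in 0 of the 9 windows, which says only that these letters are not in these 300 bases. Junb, with the forkhead letters, had a difference of 0.04 between null and wild type.

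Other immediate early genes were read out next, since the 10 genes are only a share of the class. Of 40 such genes listed, 30 were tested, of which 1 was called lower and 0 higher by limma. Differences were negative for 12 of the 30, with a median of 0.03. An unadjusted p under 0.05 was reached by 3, against 8.79% of all tested probes. Over all 11145 tested genes, 1 probe each, 0.17% were called and the median was 0.01. Egr2, a zinc finger factor induced by growth factors, fell by 1.91 on the log2 scale (SE 0.22, n = 3 per group, limma adjusted p = 0.0239), or 3.75-fold. Its relatives Egr3 (-0.86, SE 0.17, limma adjusted p = 0.127) and Egr4 (-2.46, SE 0.54, limma adjusted p = 0.188) did not pass, although in both the groups did not overlap, with null lower. Null arrays were fully separate from wild-type arrays in 5 of the 30 genes, and in 14% of all tested probes. Among the 5, Egr2, Egr3 and Egr4 were lower in null, while Rhob (0.30) and Gadd45b (0.29) were higher.

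The intervals of Egr2 and the AP-1 genes did not meet: that of Egr2 ran from -2.40 to -1.42, and those of the 7 probes above had lower ends between -0.77 and -0.24. Egr2 stands here because of its change, so this contrast is a description. Its call was lost with median scaling (limma adjusted p = 0.0513), without the filter on dim probes (0.0582) and when any single array but null replicate 1 was left out (0.101 to 0.118), and its difference stayed between -2.13 and -1.49.

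**Figure D4:**
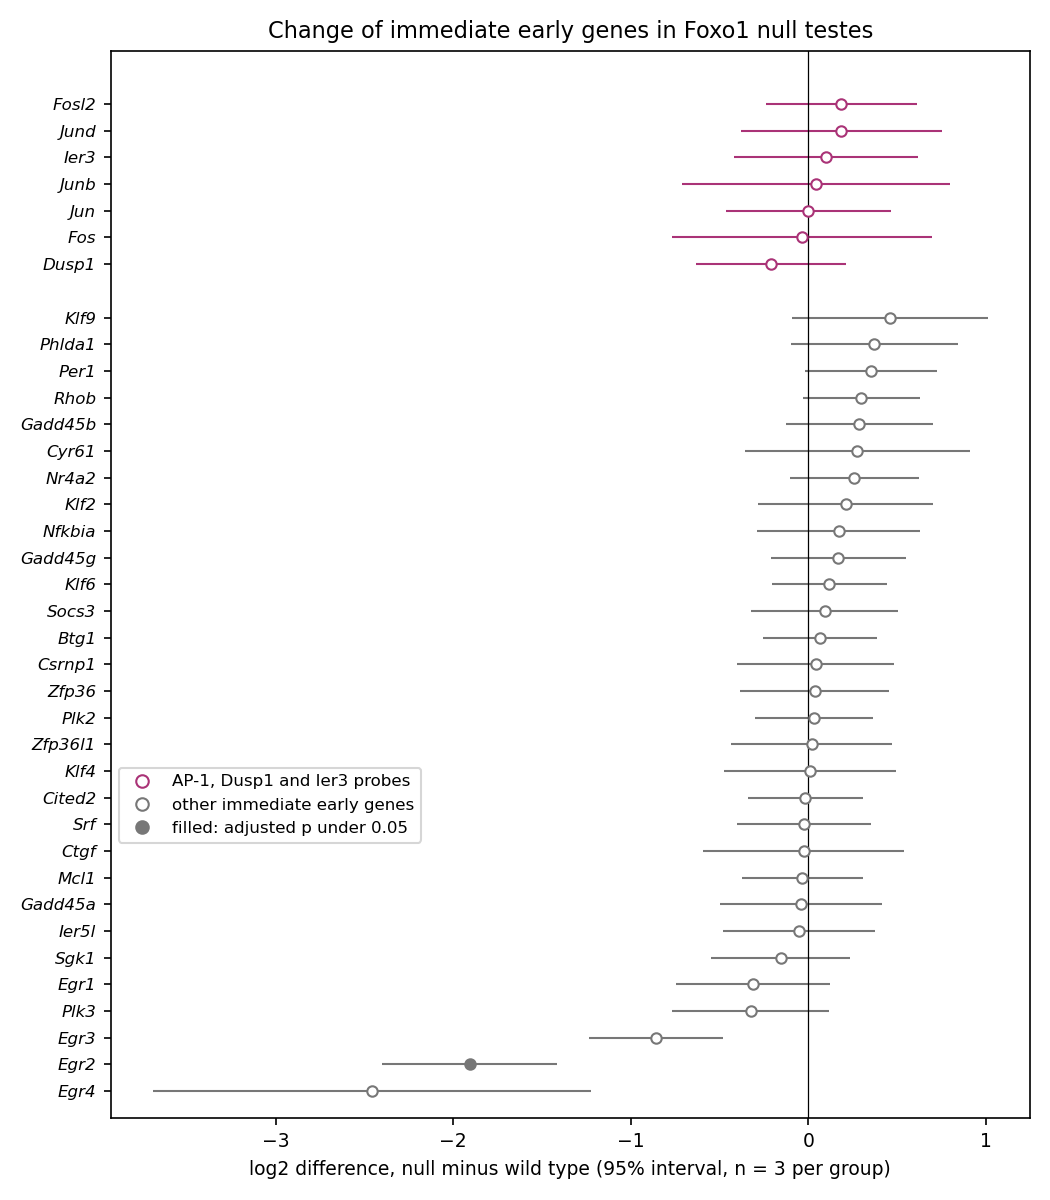
Log2 difference, null minus wild type (x axis, with its 95% interval, n = 3 per group), of the 7 tested probes (upper block) and of 30 other tested immediate early genes (lower block), with a filled point for an adjusted p under 0.05. All 7 intervals of the upper block contain 0, and Egr2 at -1.91 is the only filled point.

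Negative feedback on ERK and the bZIP relatives of AP-1 gave no further calls. Only 0.17% of all 11145 tested genes were called, so a count of 0 in lists this short carries little weight. Of 16 tested feedback genes of 19 listed, 0 passed by limma (3 at an unadjusted p under 0.05, against 8.79% of all tested probes, median -0.07). For 7 of these 16, null arrays lay entirely above or entirely below the wild-type arrays, against 14% of all tested probes. Null was lower for Etv4, Etv5, Dusp6 and Il17rd and higher for Dusp10, Spred1 and Dusp16. The smallest p-values of the 16 were those of Etv4 (-1.40, SE 0.31, limma adjusted p = 0.188), Etv5 (-0.43, SE 0.16) and the phosphatase gene Dusp10 (0.46, SE 0.19). Dusp10 was detected on 3 null arrays and 1 wild-type array. The null arrays alone carried it past the filter, so its higher null values carry little weight. Etv4 and Etv5 encode ETS factors that are transcriptional targets of ERK, not inhibitors of it. Of 14 tested AP-1 relatives of 20 listed, 0 passed by limma and 0 had an unadjusted p under 0.05 (median 0.07), with Atf5 (0.37, SE 0.20), Jdp2, a JUN partner (0.37, SE 0.22), and Maf (0.24, SE 0.15) nearest to it. Of 10 tested MAP kinases and upstream factors of 22 listed, 0 passed by limma and 1 had an unadjusted p under 0.05 (median 0.07): Mapk8, which encodes the JUN kinase JNK1, at 0.41 (SE 0.16). Next were Rps6ka3, a kinase activated by ERK (-0.32, SE 0.21), and the GTPase gene Nras (0.13, SE 0.14).

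Stress programmes other than the immediate early response were likewise without calls. With 0.17% of all 11145 tested genes called, a count of 0 among 14 lies near the background and says little by itself. Among 14 tested heat shock genes of 17 listed, 0 passed by limma and 2 had an unadjusted p under 0.05, with a median of -0.09. The groups did not overlap at 3 of these 14 genes, against 14% of all tested probes. The leading ones were Cryab, a small heat shock protein (0.48, SE 0.17), the chaperone gene Hsp90aa1 (-0.39, SE 0.17) and Hspb1, another small heat shock protein (0.35, SE 0.18). The mean log2 value of the 14 heat shock genes on null replicate 1, where most AP-1 genes were low, was 0.16 above the wild-type mean, the highest of the 6 arrays. Among 14 tested hypoxia genes of 15 listed, 0 passed by limma and 0 had an unadjusted p under 0.05 (median 0.14). At 2 of them, Car9 and Pgk1, the groups did not overlap, with null higher, against 14% of all tested probes. The mean of the hypoxia genes too was highest on null replicate 1, at 0.19 above the wild-type mean. The leading ones were Pdk1, a kinase that holds back pyruvate oxidation (-0.33, SE 0.17), Car9, a carbonic anhydrase (0.33, SE 0.19), and Ndrg1 (0.31, SE 0.19). Car9 was detected on 3 null and 0 wild-type arrays. It passed the filter through null alone, so its higher null values carry no weight.

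Markers of several cell types differed between the groups in summed level, and in whole testis fewer cells of a type and less RNA per cell cannot be told apart. All 9 tested germ cell markers of 10 listed had negative values (median -1.39, 1 past the threshold), with summed intensities of 3868 to 5888 in wild type and 1430 to 2230 in null. Summed intensities were higher in null for 8 tested macrophage markers (2068 to 2697 against 1540 to 1662), 6 duct epithelium markers (1371 to 5590 against 872 to 1287) and 4 peritubular myoid markers (32892 to 47699 against 24371 to 30309), with 0 members past the threshold. Of the duct markers, Pax8 was detected on 3 null and 0 wild-type arrays, and Krt19 on 3 and 1. The null arrays alone carried both past the filter. Summed intensities of the 6 tested endothelial markers were also higher in null (2114 to 2715 against 1791 to 1938). Their mean log2 values overlapped between groups, and the single differences were mixed, from -0.09 for Pecam1 to 0.72 for Emcn. Of 3 tested mast cell markers Cpa3 (1.33) and Cma1 (1.17) had null arrays that were all above wild type, without passing, and Kit, which other cells also express, was at 0.20. Summed intensities overlapped for 8 Sertoli cell markers (30917 to 32397 in wild type and 30277 to 39304 in null), and also for 5 Leydig cell markers, 4 red blood cell markers and 2 adipocyte markers. Among the markers of the labelled tissue, Sox9 and Fshr of Sertoli cells and Ddx4 and Dazl of germ cells were detected on all 6 arrays.

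Null replicate 1, low for 6 of the 7 probes, was also the null array nearest to wild type in most marker lists. By mean log2 value this held for germ cell, duct epithelium, macrophage, peritubular myoid, Leydig cell, Sertoli cell and adipocyte markers. It did not hold for endothelial, red blood cell and mast cell markers (mast cells 1.26 above wild type, against 0.52 and 0.91 on null replicates 2 and 3). The germ cell marker mean of null replicate 1 relative to wild type was -1.17, against -1.94 and -1.64 on null replicates 2 and 3. Its duct epithelium mean was 0.52 above, against 2.13 and 1.58. Its macrophage mean was 0.34 above, against 0.68 and 0.74, and its peritubular myoid mean 0.26 above, against 0.57 and 1.13. Null replicate 1 had the lowest median scanner signal of the null arrays, 119 against 135 and 141, and 21136 detected probes against 20387 and 21665. The part of these differences in the low AP-1 values of that array was not tested.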

How the data were processed

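Biotinylated cRNA was made from Trizol-extracted, DNase-treated RNA, per the labels' protocols, and BeadStudio is named in the submitters' processing notes. The deposited scanner table gives, per the file headers, a mean bead intensity for each probe, its standard error over beads (a signal value), the count of beads and a detection p-value, not normalized between arrays. A second deposited table holds normalized intensity from the authors and served as an alternative.

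Scanner intensities were corrected and normalized with limma 3.58.1 in R 4.3.3 (neqc, offset 16, background inferred from detection p-values, quantile normalization, log2). Probes detected on at least 3 of 6 arrays were fitted with lmFit and eBayes, null minus wild type, without covariates, and p-values were adjusted over all 20597 by Benjamini-Hochberg. The fit was tested on simulated data. Precision is limited by 3 arrays per group. The median number of beads per probe was 43 on every array.

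Symbols came from the platform annotation: 34885 probes had 1, 18 several and 10378 none. Genes with several probes entered lists by the tested probe with the highest mean; the 10 genes are given probe by probe. Outside them, the text names up to 3 genes per pathway or stress list by smallest p and 3 genes most like Fos. The 10 genes and the 16 lists were chosen with earlier results of these data known, and no set test was made. Alternatives were other background corrections and scalings, the authors' values, other filters, variance priors, array weights, a replicate block, slide position, a looser threshold and leaving out each array.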

Additional observations from a re-analysis of the deposited data

How the results depend on the processing

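The count of 0 called among the tested probes of the 10 genes held in each of the 18 alternatives run, by limma, with the smallest adjusted p between 0.359 (no filter on dim probes, at an undetected Junb probe) and 0.925. Single differences lay between -0.34 (Dusp1) and 0.46 (Jund) in 17 settings; the sign held in 17 for Fosl2 and Dusp1, 15 for Jund, 14 for Ier3, 13 for Junb, 12 for Fos and 8 for Jun. The median difference was -0.15 to 0.24 with 1 array left out and -0.001 to 0.14 otherwise, and the median within-group SD 0.24 to 0.38 and 0.22 to 0.33, above that of all probes tested in each setting. Without background correction the median SDs were 0.23 against 0.13 for all.

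The counts over all probes, 26 lower and 2 higher, moved more. They were 53 and 9 without background correction, 74 and 13 with an offset of 50, 12 and 2 with median scaling, 45 and 8 with the authors' values, 1 and 1 with no filter, 17 and 1 with detection on all 6 arrays, 85 and 18 with a trended and robust prior, 83 and 26 with array weights, 32 and 6 with slide position as a covariate, and 66 and 10 at an adjusted p under 0.1. Leaving out 1 array gave 0 to 49 lower and 1 to 21 higher. With the replicate block they were 51 and 17, and 0 of the 7 probes were called. The sample titles give a slide position and no replicate number, so replicates were numbered here by slide order within each group. The block is therefore arbitrary. Deviations of same-numbered arrays correlated at 0.16, -0.10 and 0.11, which cannot show whether the animals were paired. The causes were not tested. The number of arrays, 3 per group, limits the precision to the intervals given above, and probes not above background give no level.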
